A study of Mus musculus with 6 samples.

Results

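The 38 genes described here encode the enzymes and regulators by which cells remove peroxides, superoxide and reactive electrophiles: the glutathione and thioredoxin systems, peroxiredoxins, superoxide dismutases, catalase, glutathione transferases and glutaredoxins, with the sensor pair NRF2 and KEAP1. They were taken by gene symbol from the 32285 genes of the table, 1 row per gene identifier, and all 38 were found once. All 38 also had a mean of at least 10 normalised reads over the 6 libraries and so were among the 15073 genes tested. Glutathione is a small thiol peptide that peroxidases and glutaredoxins use as electron donor and that transferases join to electrophiles. Thioredoxin, a small protein, feeds the peroxiredoxins. Oxidised glutathione and thioredoxin are both returned to the reduced form with NADPH. NRF2, encoded by Nfe2l2, is held low by KEAP1 and switches on many of these genes when KEAP1 is modified by oxidants or electrophiles. In the embryonic cortex such genes are expressed by dividing progenitors, and several of them are also known as abundant genes of red blood cells and macrophages.

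The cells came from E10.5 wild-type mouse neocortex and are labelled as radial glial progenitors, the neural stem cells of the embryonic cortex. Dissociated cells were cultured and given GSK2837808A, an inhibitor of lactate dehydrogenase, or the same volume of its solvent DMSO, and were collected after about 24 h. Live (DAPI-negative) cells were sorted for CD133, a surface protein encoded by Prom1, at about 1000 cells per sample, and bulk Smart-seq2 libraries were made, giving 3 DMSO and 3 GSK libraries. The labels give 100 mM for the inhibitor, a concentration that is implausibly high for a culture medium and was not verified. No label says that replicates came from separate cultures or embryos, so the p-values reflect no more than the spread among these libraries, which can be technical.

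The libraries held 7187089 to 10224348 recovered reads, and a member had between 13 and 11074 reads in a library. The summed markers of several cell types did not overlap between the groups. Red blood cell markers (17 of 18 tested higher, none lower) summed to 2699 to 21698 in DMSO and 190972 to 281536 in GSK libraries, and macrophage and microglia markers (12 of 19 higher) to 200.2 to 585 in DMSO and 1319 to 2171 in GSK libraries. Neuron markers (9 of 14 higher) summed to 8389 to 16511 in DMSO and 24603 to 30568 in GSK libraries, and radial glial markers (15 of 20 lower) to 32103 to 33571 in DMSO and 16147 to 19147 in GSK libraries. The labelled cell type's defining genes were read in all libraries, with lower values in GSK libraries: Prom1, the gene of the sorted surface protein, went from 1183 ± 72.2 to 591 ± 96.3 normalised reads (group means of 3 libraries, ± SD), Pax6 from 1166 ± 100.0 to 446 ± 33.3 and Sox2 from 553 ± 19.2 to 203 ± 45.1. Mesenchymal markers (1 of 11 tested higher, 2 lower, 8 not passing) were present throughout, and summed to 28154 to 35568 in DMSO and 18517 to 28011 in GSK libraries. No gene of these lists was at 0 in every library. Sums for 7 lists, endothelial cells and intermediate progenitors included, were compared with exact permutation tests (two-sided), for which 3 against 3 allows no p below 0.1, and the smallest adjusted p was 0.117. In bulk samples, fewer cells of a type and less RNA per cell cannot be told apart.

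**Figure D1:**
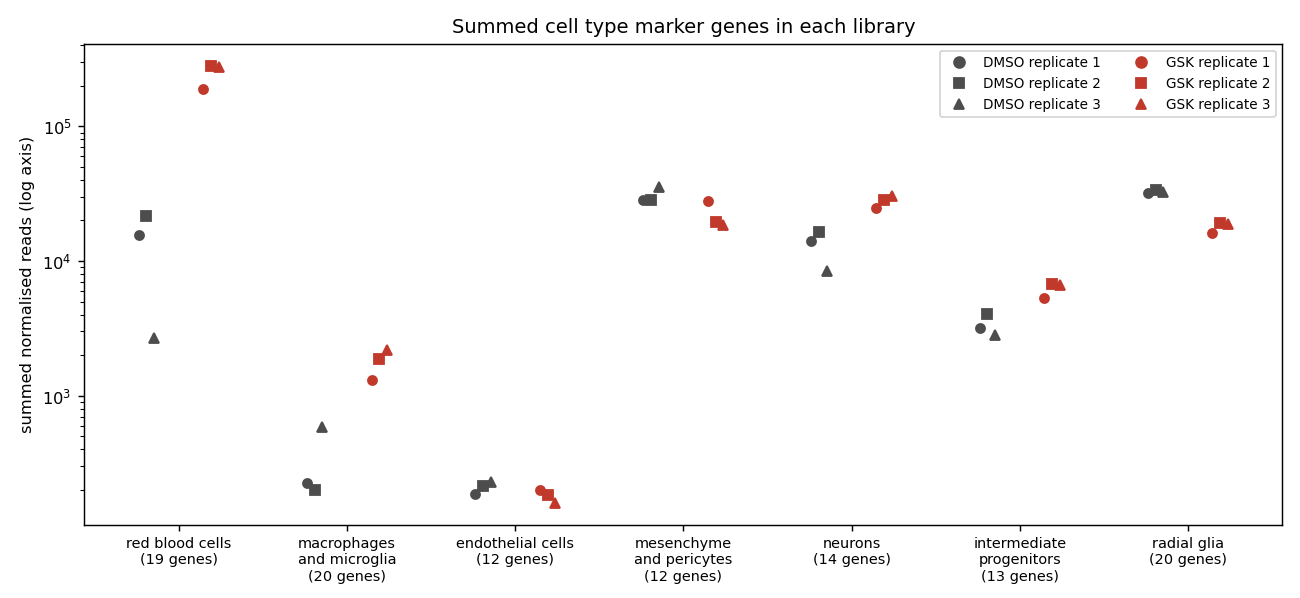
Summed normalised reads of 7 lists of cell type marker genes in each of the 6 libraries, on a log axis, with 1 point per library. Red blood cell sums ran 2699 to 21698 in DMSO and 190972 to 281536 in GSK libraries, and radial glial sums 32103 to 33571 in DMSO and 16147 to 19147 in GSK libraries.

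The comparison of GSK with DMSO asks how antioxidant genes stood when lactate dehydrogenase was inhibited. Of the 38 genes, 14 were higher and 4 lower in GSK libraries (limma with log2(value + 1), where the Benjamini-Hochberg adjusted p over all tested genes had to be below 0.05), and 20 did not pass. Of all tested genes 36.1% passed, 17.0% as higher and 19.1% as lower. The share of members called higher, 36.8%, lay above that background and the share called lower, 4 of 38, below it. The members were chosen with earlier results of these data known, so these shares describe the chosen list and support no test against the background. The members' median log2 fold change was 0.18, beside 0.01 for all tested genes. The groups did not overlap for 23 members, or 60.5%, against 47.2% of all tested genes. Changes were mostly modest: 5 members, or 13.2%, passed with a change of at least 2-fold on the log2(value + 1) scale, against 11.9% of all tested genes. These were Mgst3, Glrx, Gpx1 and Srxn1, all higher, and Gsta4, which was lower. The count of members called higher fell to 9 without DMSO replicate 1, GSK replicate 2 or GSK replicate 3, and was 18 without GSK replicate 1. The count called lower rose to 7 without GSK replicate 3. With equal library totals 11 members were higher and 7 lower. GSK replicate 1, the library with the fewest reads, had the lowest GSK value for 34 of the 38 members and for 45.7% of all tested genes.

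**Figure D2:**
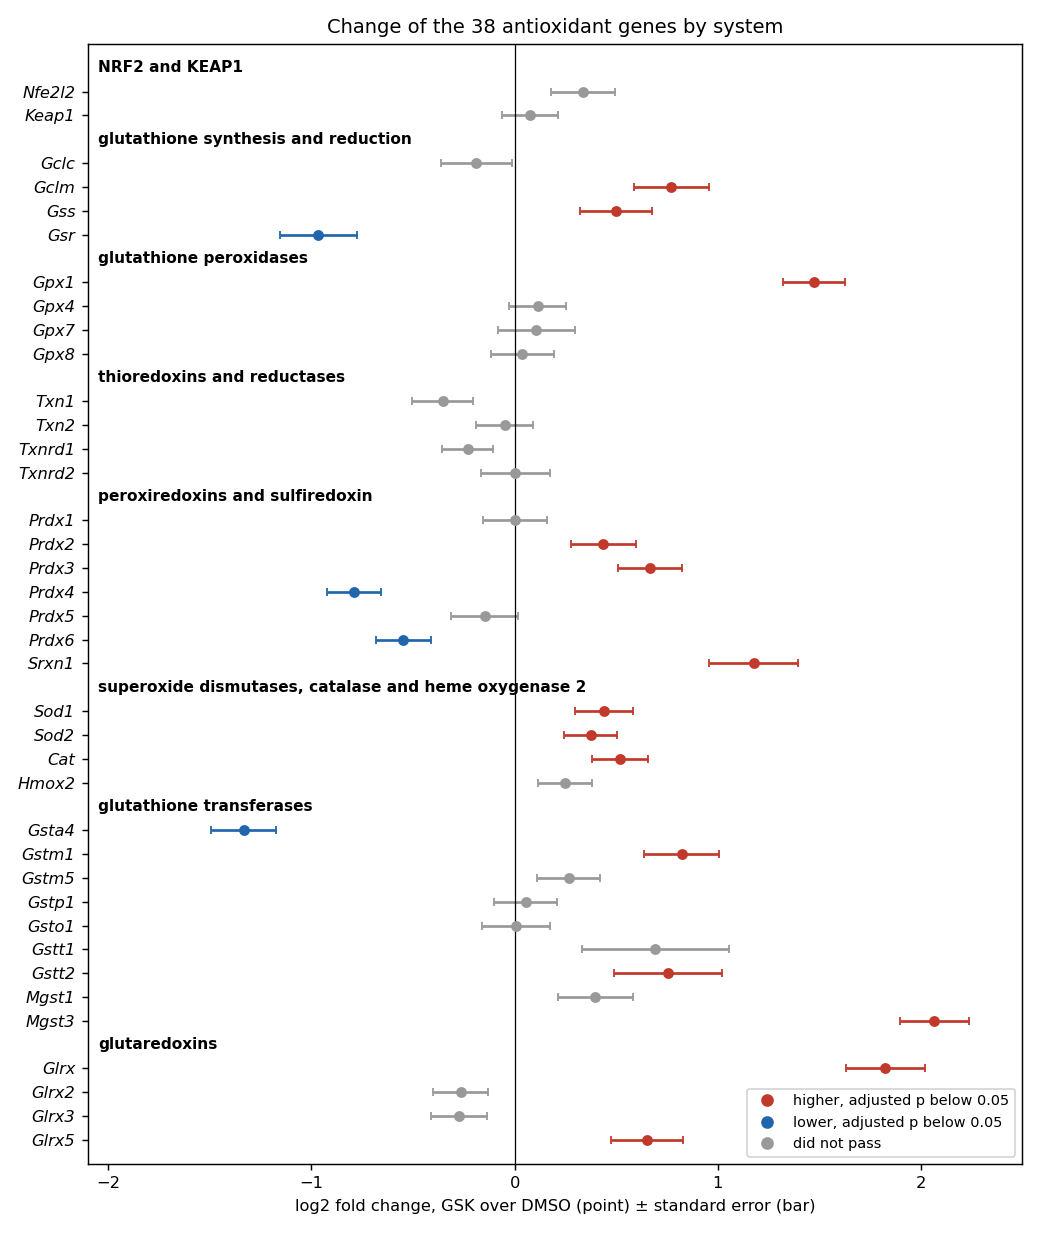
Log2 fold change of each of the 38 genes, GSK over DMSO (point), with its standard error (bar), grouped by system. Points in red passed as higher (14), points in blue as lower (4) and grey points did not pass (20), and every system except the NRF2 pair and the thioredoxins held at least 1 gene that passed.

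Neither regulator gene passed the test. Nfe2l2, which encodes NRF2 (chromosome 2, 75675513 to 75704641, GRCm38), had 218, 173 and 215 normalised reads in the DMSO libraries and 218, 277 and 271 in the GSK libraries. The lowest GSK value lay just above the highest DMSO value. Its log2 fold change was 0.34 ± 0.16 SE, limma adjusted p = 0.1, which did not pass, although it passed without GSK replicate 1 (adjusted p = 0.0205; range over the 6 single-library omissions 0.0205 to 0.369). Keap1, which encodes the NRF2 adaptor, had 325, 383 and 398 normalised reads in the DMSO libraries and 362, 379 and 423 in the GSK libraries. These values overlapped, with a log2 fold change of 0.08 ± 0.14 SE, limma adjusted p = 0.706, and an antisense-oriented gene, Gm16754, shares 510 exon bases with Keap1.

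Among the partners and regulators of NRF2, 4 of 12 tested genes rose and 2 fell (33.3% and 16.7%, beside 17.0% and 19.1% of all genes). Sqstm1, whose product p62 sequesters KEAP1 and also serves as an autophagy receptor, rose from 1716 ± 71.1 to 3523 ± 134 normalised reads (group means of 3 libraries, ± SD), Trim21 had a log2 fold change of 0.97, and Mafg, a small MAF partner of NRF2, one of 0.49. Pgam5, a mitochondrial phosphatase that binds KEAP1, and Bach2 fell by 0.53 and 0.42 on the log2 scale. The competing repressor gene Bach1 did not pass (0.16).

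NRF2 binds DNA with a small MAF protein at the antioxidant response element, whose core is often written TGACNNNGC. RefSeq promoter windows on GRCm38.p6, each from 250 bases before to 50 bases after a start site, were found for 33 of the 38 genes (46 windows, as some genes have several). Both strands were searched. The core was in 8 of the 46 windows, or 17.4% (95% Wilson interval 9.09 to 30.7%), and in 12.4% of all 32851 windows. The interval treats windows as independent, although some belong to the same gene, so it decides nothing about the difference. By gene, it was in 8 of the 33 members with a window, or 24.2%, and in 14.0% of all 27025 genes with a window. It was in 3 of the 13 higher genes with a window (Srxn1, Gclm and Sod1) and in 5 of the 19 that did not pass (Nfe2l2, Gstm5, Prdx1, Mgst1 and Txnrd1). The only lower gene with a window did not hold it. A second spelling, TGAGNNNGC, which was added after the Srxn1 window was read, was in 6 of the 46 windows, or 13.0%, against 17.6% of all windows. By gene it was in 18.2% of members with a window, against 19.8% of all such genes. The members holding it were Srxn1, Gstm5, Prdx1, Gstt1, Txn2 and Gstp1. Either spelling was in 23.9% of member windows against 27.8% of all windows, and by gene in 33.3% against 30.8%. Shares by gene also depend on windows per gene, 46 for 33 members and 32851 for 27025 genes. The 4 windows printed here show a gene that rose with its groups well apart (Srxn1), the modifier subunit gene (Gclm), an abundant gene that did not pass but holds the core (Prdx1), and the gene with the largest rise, which holds neither spelling (Mgst3). They lie at chr2:152105274-152105573 (plus strand), chr3:122245307-122245606 (plus), chr4:116685349-116685648 (plus) and chr1:167393792-167394091 (minus). Capitals mark either spelling on either strand, and each is printed 5′ to 3′ along the gene.
Srxn1: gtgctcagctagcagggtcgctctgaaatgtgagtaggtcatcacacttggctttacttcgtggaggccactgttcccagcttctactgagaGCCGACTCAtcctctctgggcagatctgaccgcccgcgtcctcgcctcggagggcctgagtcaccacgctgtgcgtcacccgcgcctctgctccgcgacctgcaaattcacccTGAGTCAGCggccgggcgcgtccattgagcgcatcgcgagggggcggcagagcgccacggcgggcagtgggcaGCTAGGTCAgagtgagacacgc
Gclm: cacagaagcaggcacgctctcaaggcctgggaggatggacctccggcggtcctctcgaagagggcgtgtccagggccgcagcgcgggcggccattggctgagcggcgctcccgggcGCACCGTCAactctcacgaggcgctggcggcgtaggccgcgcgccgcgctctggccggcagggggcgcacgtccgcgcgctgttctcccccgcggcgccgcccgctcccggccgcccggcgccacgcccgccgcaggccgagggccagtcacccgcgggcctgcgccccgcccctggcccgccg
Prdx1: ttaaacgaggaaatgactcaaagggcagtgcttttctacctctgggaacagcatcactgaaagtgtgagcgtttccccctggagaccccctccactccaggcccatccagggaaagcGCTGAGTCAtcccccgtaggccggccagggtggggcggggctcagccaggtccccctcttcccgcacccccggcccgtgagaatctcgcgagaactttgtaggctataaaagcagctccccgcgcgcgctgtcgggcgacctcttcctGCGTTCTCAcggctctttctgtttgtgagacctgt
Mgst3: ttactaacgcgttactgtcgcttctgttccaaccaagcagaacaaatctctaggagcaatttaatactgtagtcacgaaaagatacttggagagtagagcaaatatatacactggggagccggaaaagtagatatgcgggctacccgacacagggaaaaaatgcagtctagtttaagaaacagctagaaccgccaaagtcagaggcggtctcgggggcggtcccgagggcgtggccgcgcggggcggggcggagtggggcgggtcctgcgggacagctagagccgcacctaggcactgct

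In Srxn1 the capitals begin 158 and 45 bases before the start site and 29 bases after it. The middle one, TGAGTCAGC, contains TGAGTCA, the sequence also known as the AP-1 site, and the same 9 bases stood 74 bases before the start of Gstp1, which did not pass. In Prdx1 the match to the core, GCTGAGTCA on the printed strand, begins 133 bases before the start site, with a match to the second spelling 16 bases after it, and in Gclm the match GCACCGTCA begins 134 bases before it. A match describes letters in these windows only, and binding was not measured here.

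Genes whose products make and reduce glutathione went in different directions. Glutamate-cysteine ligase, which carries out the limiting step of glutathione synthesis, consists of a catalytic subunit encoded by Gclc and a modifier subunit encoded by Gclm. Gclm (chromosome 3, 122245557 to 122270732) had 75.4, 94.5 and 68.8 normalised reads in the DMSO libraries and 138, 145 and 124 in the GSK libraries. Every GSK value exceeded every DMSO value, a log2 fold change of 0.77 ± 0.18 SE, limma adjusted p = 0.00261. Gclc (chromosome 9, 77754535 to 77794485) had 106, 110.0 and 107 normalised reads in the DMSO libraries and 100.1, 91.9 and 91.3 in the GSK libraries, lower in all 3 GSK libraries but by little, with a log2 fold change of -0.19 ± 0.17 SE, limma adjusted p = 0.425, which did not pass. The log2 ratio of Gclc to Gclm reads was 0.45 ± 0.21 in DMSO and -0.52 ± 0.12 in GSK libraries (± SD over 3 libraries; p = 0.1 by a two-sided exact permutation test, the smallest possible with 3 against 3; adjusted over 6 ratios, p = 0.15). Gclm shares 296 exon bases with Gm17494 on the opposite strand, which averaged 80.0 normalised reads under DMSO and 47.6 under GSK.

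Gss, which encodes glutathione synthetase, the second enzyme of the pathway, had 124, 169 and 157 normalised reads in the DMSO libraries and 175, 202 and 264 in the GSK libraries. The groups did not overlap, and the log2 fold change was 0.50 ± 0.18 SE, limma adjusted p = 0.0338. This call was lost without DMSO replicate 1, DMSO replicate 3, GSK replicate 2 or GSK replicate 3 (highest adjusted p = 0.176) and with equal library totals (0.0657). Gss shares 395 of its 5915 exon bases with Acss2 on the opposite strand, a gene that averaged 279 normalised reads under DMSO and 574 under GSK. In an unstranded library, reads within the shared bases cannot be assigned to either gene. Gsr, which encodes glutathione reductase, the enzyme that returns oxidised glutathione to its reduced form (chromosome 8, 33652523 to 33698163), had 118, 156 and 164 normalised reads in the DMSO libraries and 64.9, 82.7 and 74.3 in the GSK libraries. All GSK values lay below all DMSO values, at 0.506 times the DMSO mean, a log2 fold change of -0.97 ± 0.19 SE, limma adjusted p = 0.000472.

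The wider genes of glutathione supply and use, chosen as a list around the members, gave 4 higher and 2 lower of 18 tested, beside the 17.0% and 19.1% of all genes. Slc7a11, the cystine carrier gene known as an NRF2 and ATF4 target, did not pass (log2 fold change 0.19, limma adjusted p = 0.417), whereas Slc3a2, the gene of its partner chain, rose from 779.8 ± 62.9 to 1604 ± 151 normalised reads. Chac1 and Chac2, whose products break glutathione down in the cytosol, rose with log2 fold changes of 3.29 and 1.36. Hagh, the gene of a glyoxalase that releases glutathione, rose by 1.12 on the same scale. The peptidase genes Lap3 and Cndp2 fell by 1.03 and 0.57 on the log2 scale.

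Of the 4 glutathione peroxidase genes, Gpx1 alone passed the test. Gpx1, the cytosolic and mitochondrial peroxidase gene (chromosome 9, 108338903 to 108340343), had 963, 1072 and 874 normalised reads in the DMSO libraries and 2098, 2952 and 3133 in the GSK libraries. The lowest GSK value was far above the highest DMSO value, and the GSK mean was 2.81 times the DMSO mean (log2 fold change 1.47 ± 0.15 SE, limma adjusted p = 2.13e-07). Gpx4, whose product reduces lipid peroxides in membranes and guards against ferroptosis, had 1341, 1266 and 1545 normalised reads in the DMSO libraries and 1255, 1531 and 1724 in the GSK libraries. These values overlapped (log2 fold change 0.11 ± 0.14 SE, limma adjusted p = 0.563). The log2 ratio of Gpx1 to Gpx4 reads was -0.51 ± 0.29 in DMSO and 0.85 ± 0.10 in GSK libraries (exact permutation p = 0.1, adjusted p = 0.15). Gpx7 and Gpx8, which encode peroxidases of the endoplasmic reticulum, had log2 fold changes of 0.11 and 0.04 and did not pass.

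Gpx1 is a well known gene of red blood cells and macrophages, and both marker sums were higher in every GSK library. Within the DMSO libraries the red blood cell sum was 15550.2, 21698 and 2699 normalised reads. Gpx1, Mgst3 and Prdx2 were each highest in DMSO replicate 2 and lowest in DMSO replicate 3, as that sum was. So were 5 other members (Gclm, Srxn1 and Sod2, which rose, Prdx6, which fell, and Txnrd1, which did not pass). Cat and Glrx5 did not follow that order. The neuron sum (14088, 16511 and 8389) and the intermediate progenitor sum (3161, 4041 and 2842) had the same order, so it is not particular to red blood cell markers. The macrophage sum was highest in DMSO replicate 3 and lowest in DMSO replicate 2, an order shared by 8 members, none of them called higher. The share of all tested genes in either order was not computed, so neither count can be read as a result about the members. Across the GSK libraries the red blood cell sum was 190972, 281536 and 278245, lowest in GSK replicate 1, where Gpx1 was lowest too. That library had the lowest GSK value for 34 of the 38 members and for 45.7% of all tested genes. The macrophage, neuron, intermediate progenitor and radial glial sums and the normalised library total were also lowest there, while the endothelial and mesenchymal sums were highest there. The part of red blood cells, macrophages or the other cell types in the members' changes was not tested.

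Neither thioredoxins nor their reductases passed. Txn1, the cytosolic thioredoxin gene, had 1850.4, 1797 and 2136 normalised reads in the DMSO libraries and 1180.0, 1611 and 1790.0 in the GSK libraries. The groups did not overlap, but by a narrow margin, and the log2 fold change was -0.35 ± 0.15 SE, limma adjusted p = 0.0714. It passed as lower with equal library totals (adjusted p = 0.0164) and with equal totals after leaving out globin, mitochondrial and ribosomal-RNA-overlapping genes (0.0289), and without GSK replicate 3 (0.0132), and its adjusted p reached 0.246 in the other omissions. Txnrd1, the cytosolic reductase gene, had 613, 645 and 549 normalised reads in the DMSO libraries and 526, 510.0 and 501 in the GSK libraries, lower in all 3 GSK libraries without passing (log2 fold change -0.23 ± 0.13 SE, limma adjusted p = 0.165). The mitochondrial pair Txn2 and Txnrd2 had log2 fold changes of -0.05 and 0.00, and the sign of Txnrd2 depended on the scaling. The log2 ratio of Txn1 to Txn2 was 1.07 ± 0.11 in DMSO and 0.76 ± 0.03 in GSK libraries (exact permutation p = 0.1, adjusted p = 0.15), and that of Txnrd1 to Txnrd2 differed by -0.24 (exact permutation p = 0.4, adjusted p = 0.48). Of 13 relatives of the thioredoxin system, none rose and 2 fell (15.4%, beside 19.1% of all genes), Msrb3 by 0.60 and Txndc5 by 0.43 on the log2 scale. The Txndc5 values overlapped between the groups, with DMSO replicate 1 at 338 and GSK replicate 1 at 362 normalised reads. Txnip, the gene of the thioredoxin-binding inhibitor, did not pass (log2 fold change 0.10, limma adjusted p = 0.665).

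The peroxiredoxins, abundant thiol peroxidases, were split between rises and falls. Prdx3, the mitochondrial member (chromosome 19, 60864051 to 60874556), had 655, 585 and 638 normalised reads in the DMSO libraries and 733, 1095 and 1218 in the GSK libraries. GSK replicate 1 lay just above the DMSO range and the other GSK libraries well above it, and the log2 fold change was 0.67 ± 0.16 SE, limma adjusted p = 0.00253. Prdx2, a cytosolic member that is abundant in red blood cells and neurons, had 7126, 7312 and 6424 normalised reads in the DMSO libraries and 7547, 10175 and 10819 in the GSK libraries. The groups were separated, narrowly at GSK replicate 1, with a log2 fold change of 0.44 ± 0.16 SE, limma adjusted p = 0.0359. Its call was lost in 5 of the 6 single-library omissions, all but that of GSK replicate 1 (highest adjusted p = 0.163), and it shares exon bases on the opposite strand with Junb and Rnaseh2a.

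Prdx4 and Prdx6 fell. Prdx4, the peroxiredoxin of the endoplasmic reticulum (chromosome X, 155323918 to 155340754), had 1187, 1053 and 1326 normalised reads in the DMSO libraries and 617, 727 and 714 in the GSK libraries, a log2 fold change of -0.79 ± 0.13 SE, limma adjusted p = 8.94e-05. Prdx6, whose product has a single active cysteine and uses glutathione, had 1838, 1858 and 1789.8 normalised reads in the DMSO libraries and 1046, 1366 and 1369 in the GSK libraries, a log2 fold change of -0.55 ± 0.13 SE, limma adjusted p = 0.00322. Both were lower in each GSK library than in any DMSO library. Prdx1, a close cytosolic relative of Prdx2, had a log2 fold change of 0.00, and Prdx5, found in several compartments, of -0.15. Neither passed, and the sign of Prdx1 turned with the scaling. The log2 ratio of Prdx1 to Prdx2 was -0.58 ± 0.21 in DMSO and -1.01 ± 0.05 in GSK libraries (exact permutation p = 0.1, adjusted p = 0.15).

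Srxn1 encodes sulfiredoxin, which repairs over-oxidised peroxiredoxins and is a classic NRF2 target. Srxn1 (chromosome 2, 152105516 to 152111376) had 37.2, 38.7 and 35.3 normalised reads in the DMSO libraries and 94.4, 87.3 and 74.3 in the GSK libraries. The groups were well apart, the GSK mean was 2.30 times the DMSO mean, and GSK replicate 1 was the highest, unlike most members. The log2 fold change was 1.18 ± 0.22 SE, limma adjusted p = 0.000274.

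**Figure D3:**
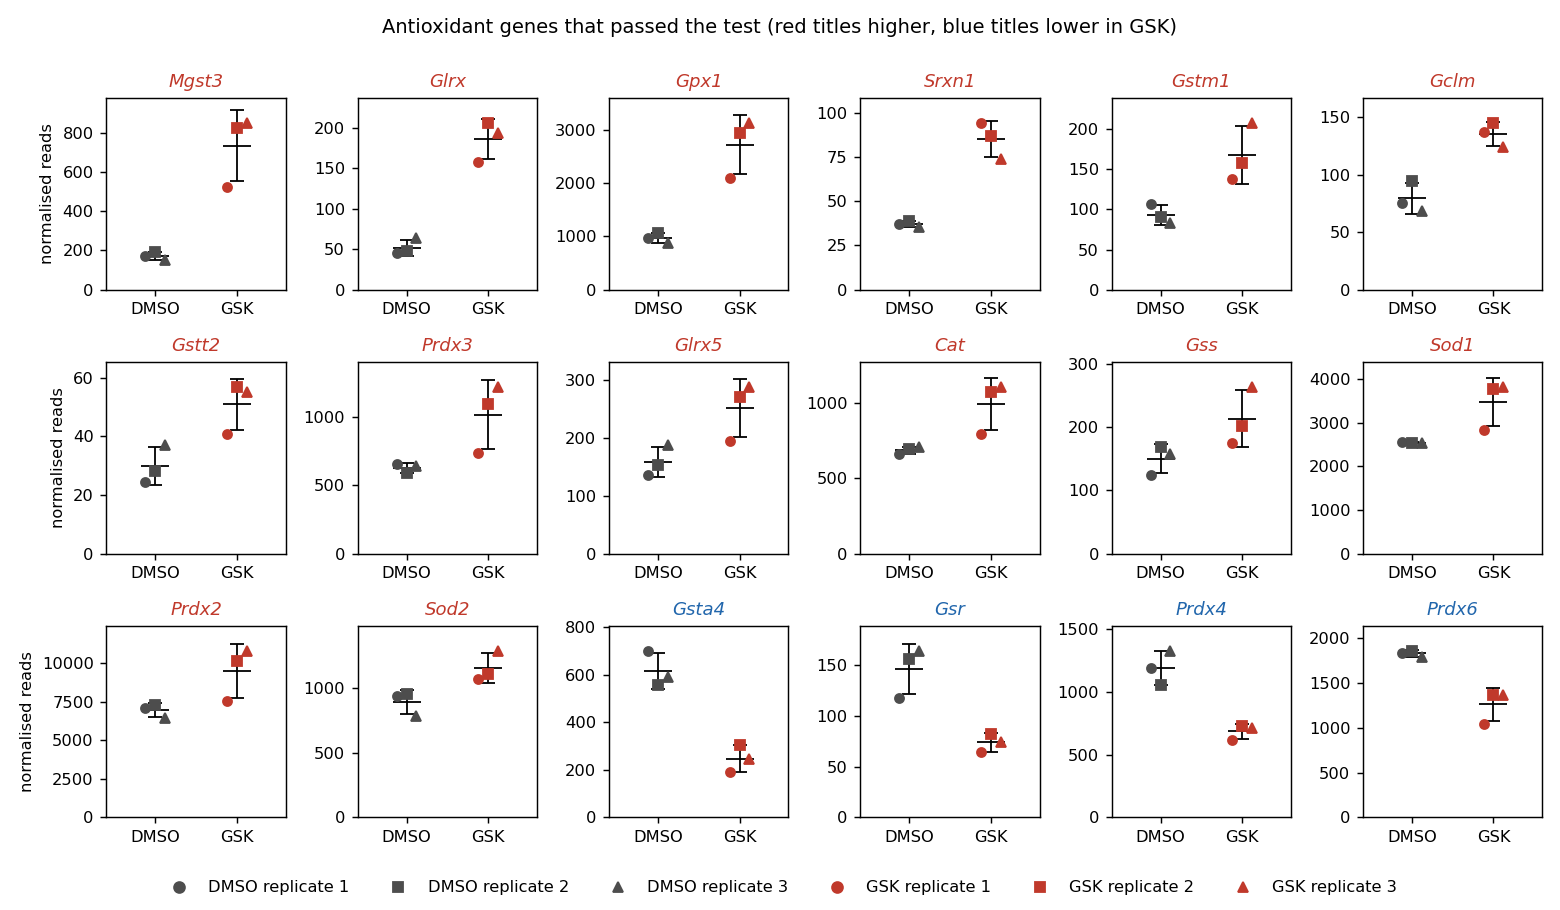
Normalised reads in each of the 6 libraries for the 14 genes that were higher (red titles) and the 4 that were lower (blue titles), with the mean (long bar) and SD (whiskers, n = 3) of each group and each axis starting at 0. No GSK point overlaps the DMSO range in any panel, and GSK replicate 1 (red circle) is the lowest GSK point for 12 of the 14 genes that were higher.

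Superoxide dismutase and catalase genes rose by similar, small amounts. Sod1, which encodes the copper and zinc enzyme of the cytosol, had 2553, 2529.5 and 2533 normalised reads in the DMSO libraries and 2840.3, 3767 and 3821 in the GSK libraries. The 3 DMSO values were nearly equal and all GSK values higher, with a log2 fold change of 0.44 ± 0.14 SE, limma adjusted p = 0.02. Sod2, the manganese enzyme of mitochondria, had 934, 954 and 785 normalised reads in the DMSO libraries and 1067, 1111 and 1287 in the GSK libraries, a log2 fold change of 0.37 ± 0.13 SE, limma adjusted p = 0.0305. Both calls were lost in 5 of the 6 single-library omissions, all but that of GSK replicate 1 (highest adjusted p = 0.124 for Sod1 and 0.155 for Sod2), and that of Sod2 with equal library totals as well (0.0565). The log2 ratio of Sod1 to Sod2 reads differed by 0.07 between the groups (exact permutation p = 0.6, adjusted p = 0.6).

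Cat, the gene of peroxisomal catalase, which is also abundant in red blood cells, had 661, 696 and 707 normalised reads in the DMSO libraries and 799, 1078 and 1111 in the GSK libraries. The groups did not overlap, and the log2 fold change was 0.52 ± 0.14 SE, limma adjusted p = 0.00593. Hmox2, which encodes the constitutive heme oxygenase, had a log2 fold change of 0.25 and did not pass (limma adjusted p = 0.159). Its inducible relative Hmox1, an NRF2 target outside the 38 genes, rose from 67.9 ± 3.25 to 177 ± 29.9 normalised reads. Ccs, the copper chaperone gene for the Sod1 product, rose with a log2 fold change of 0.38.

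Glutathione transferases, which join glutathione to electrophiles, held both the largest rise and the largest fall of the 38 genes. Mgst3, a membrane-bound transferase and peroxidase gene (chromosome 1, 167371966 to 167393841), had 171, 192 and 151 normalised reads in the DMSO libraries and 526, 825 and 849.9 in the GSK libraries. The GSK values were all far above the DMSO range, at 4.28 times its mean, a log2 fold change of 2.07 ± 0.17 SE, limma adjusted p = 1.61e-08. Gsta4, whose product clears 4-hydroxynonenal, an aldehyde from lipid peroxidation (chromosome 9, 78182774 to 78209349), had 700.0, 557 and 588 normalised reads in the DMSO libraries and 190.0, 306 and 244 in the GSK libraries. All GSK values were below all DMSO values, with a log2 fold change of -1.33 ± 0.16 SE, limma adjusted p = 2.15e-06.

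Gstm1, a mu class gene, had 107, 91.1 and 82.7 normalised reads in the DMSO libraries and 138, 158 and 208 in the GSK libraries, a log2 fold change of 0.82 ± 0.19 SE, limma adjusted p = 0.00173. Gstt2, a theta class gene, was low, with 24.4, 28.4 and 37.2 normalised reads in the DMSO libraries and 41.0, 57.0 and 55.2 in the GSK libraries. Its groups were close but separate (log2 fold change 0.75 ± 0.27 SE, limma adjusted p = 0.0316), and the call was lost without DMSO replicate 1, DMSO replicate 2, GSK replicate 2 or GSK replicate 3 (highest adjusted p = 0.127), with DESeq2 (0.0578), with equal totals (0.0514) and with no filter on low values (0.0538). Gstt1, Mgst1, Gstm5, Gstp1 and Gsto1 had log2 fold changes of 0.69, 0.40, 0.27, 0.06 and 0.01 and did not pass. Transferase genes of a class resemble each other, and how reads shared between them were counted is not given in the sources used here. The close copy Gstp2 averaged 2.92 normalised reads in DMSO libraries, beside 1001 for Gstp1.

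Among the other peroxidase and transferase genes, 4 of 10 tested rose and 2 fell (40% and 20%, beside 17.0% and 19.1% of all genes). Hpgds, a prostaglandin synthase of the transferase family, Gstm7 and Gstm4 rose, with log2 fold changes of 0.99, 0.64 and 0.78. Gstcd fell from 429 ± 14.9 to 176 ± 23.7 normalised reads, and Gpx3, which encodes a secreted peroxidase, fell by 0.69 on the log2 scale. Of the 5 mu class genes tested, Gstm1, Gstm4 and Gstm7 passed as higher, while Gstm2 (0.36) and Gstm5 (0.27) did not pass.

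Glutaredoxins reduce protein disulphides with glutathione or carry iron-sulphur clusters. Glrx, the cytosolic dithiol enzyme gene (chromosome 13, 75839868 to 75850154), had 44.6, 48.1 and 63.2 normalised reads in the DMSO libraries and 158, 206 and 193 in the GSK libraries. The groups were wide apart, 3.57-fold in their means, with a log2 fold change of 1.82 ± 0.19 SE, limma adjusted p = 3.7e-07. Glrx5, whose product hands iron-sulphur clusters on in mitochondria and is needed for heme synthesis in red cell precursors, had 135, 153 and 187 normalised reads in the DMSO libraries and 193, 270.1 and 288 in the GSK libraries. The lowest GSK value was close to the highest DMSO value, and the log2 fold change was 0.65 ± 0.18 SE, limma adjusted p = 0.00657. Glrx2 and Glrx3 had log2 fold changes of -0.27 and -0.28 without passing. Glrx3 was lower in all 3 GSK libraries and passed as lower with equal library totals (adjusted p = 0.0228), with totals leaving out globin, mitochondrial and ribosomal-RNA-overlapping genes (0.0454) and without GSK replicate 3 (0.036), and Glrx2 with equal library totals (0.0493) and without GSK replicate 3 (0.0474).

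The order of levels within the set changed in a few places. Per kilobase of annotated exon, Prdx2 was highest in both groups (2280.0 and 3119 normalised reads per kilobase under DMSO and GSK). Txn1 and Prdx1 followed in DMSO libraries at 1835 and 1532. Gpx1 stood at rank 5 in DMSO libraries at 673, below Gpx4 at 803, and at rank 2 in GSK libraries at 1893, with Gpx4 at 872. Mgst3 went from 156 to 669, from rank 21 to rank 10, and Gsta4 from 486 to 195, from rank 10 to rank 21. The lowest levels were those of Gstt2, Glrx, Gstt1 and Gclm in DMSO libraries, at 7.22 to 12.6. The lengths join all annotated exons of a gene, so genes with many unused exons read too low on this scale.

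**Figure D4:**
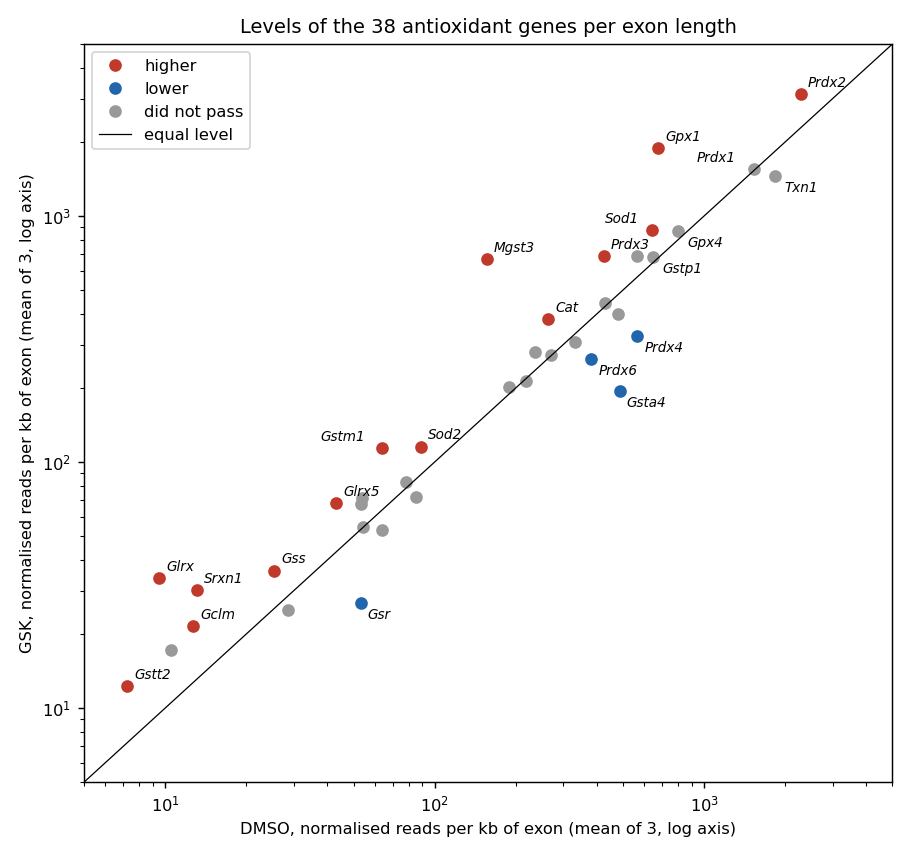
Mean level of each of the 38 genes in GSK against DMSO libraries, in normalised reads per kilobase of exon on log axes, with a line of equal level. Mgst3, Glrx and Gpx1 lie farthest above the line and Gsta4 and Gsr farthest below it, and Prdx2 is highest on both axes.

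By the compartment in which the products work, 3 of 6 genes assigned to mitochondria alone were higher (Prdx3, Sod2 and Glrx5) and none lower. Of these 3 calls, that of Sod2 was the one lost in single-library omissions and with equal totals. Of the 19 genes assigned to the cytosol alone, 8 were higher and 2 lower, beside 17.0% higher and 19.1% lower of all genes. Of the 3 genes assigned to both compartments, Gpx1 was higher, Gsr was lower and Gpx4 did not pass. Prdx5, found in several compartments, did not pass either. Of the 4 genes of the endoplasmic reticulum none was higher and Prdx4 was lower. Gpx1, Gpx4, Txnrd1 and Txnrd2 encode selenoproteins, which carry selenocysteine in the active site. Among 19 other genes of selenoproteins and their synthesis, 3 rose and 5 fell (15.8% and 26.3%, beside 17.0% and 19.1% of all genes). Selenok, Selenon and Selenop rose, with log2 fold changes of 0.76, 0.46 and 0.58. The Selenop values overlapped between the groups, with DMSO replicate 3 at 720 and GSK replicate 1 at 617 normalised reads. Selenoh fell from 1385 ± 64.1 to 667 ± 122 normalised reads, and Sephs1 and Eefsec, the latter encoding the elongation factor for selenocysteine, fell by 0.67 and 0.56 on the log2 scale.

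A list of NADPH sources with related folate enzyme and NAD kinase genes gave 3 higher and 4 lower of 16. These shares (18.8% and 25.0%) were near the 17.0% and 19.1% of all genes. Idh1, which encodes cytosolic isocitrate dehydrogenase, rose from 2143 ± 207 to 4649 ± 584 normalised reads, Aldh1l2 rose by 1.80 on the log2 scale, and G6pdx, which encodes the entry enzyme of the pentose phosphate pathway, by 0.41. The folate enzyme genes Mthfd1l and Mthfd1 fell by 1.86 and 1.52 on the log2 scale, and Idh2 fell by 0.39.

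Of 13 other known NRF2 targets tested, 8 rose and 3 fell (61.5% and 23.1%, beside 17.0% and 19.1% of all genes). This list too was chosen with earlier results of these data known. Nqo1, the quinone reductase gene often used to read NRF2 activity, had 34.0, 38.7 and 40.9 normalised reads in the DMSO libraries and 81.9, 111 and 107 in the GSK libraries. The groups were well separated (log2 fold change 1.37 ± 0.22 SE, limma adjusted p = 5.45e-05). Blvrb, the biliverdin reductase B gene, rose from 124 ± 37.1 to 962 ± 173 normalised reads, Fth1, the ferritin heavy chain gene, from 4099 ± 186 to 12852 ± 2158, and Hmox1 with a log2 fold change of 1.36. The exporter genes Abcc1 and Abcc4 and the sugar dehydrogenase gene Ugdh fell by 0.74, 1.12 and 0.47 on the log2 scale. Blvrb and the ferritin genes are also abundant in red blood cells and macrophages, whose summed markers were 18.8 and 5.33 times higher in GSK libraries, and their part in these changes was not tested.

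**Figure D5:**
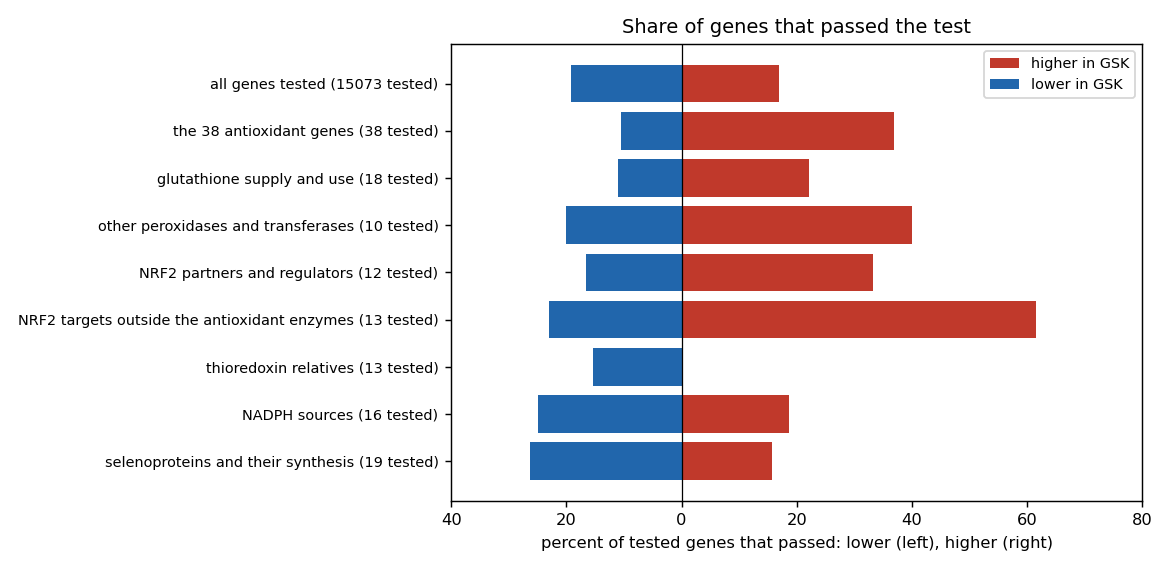
Percent of tested genes that passed as higher (right, red) or lower (left, blue) in GSK libraries, for all genes tested, the 38 antioxidant genes and 7 lists of related genes, with the number tested in brackets. The 38 genes and the 7 lists were chosen with earlier results of these data known. Against 17.0% of all genes, the share of higher genes was 61.5% among other NRF2 targets and 36.8% among the 38 genes. It was 40.0% among other peroxidases and transferases, 33.3% among NRF2 partners and 22.2% for glutathione supply and use. For NADPH sources with related enzymes it was 18.8%, for selenoproteins 15.8% and for thioredoxin relatives 0%.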

How the data were processed

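Transcript levels were measured in 6 bulk RNA-seq libraries of sorted CD133-positive cells from cultured E10.5 mouse neocortex, 3 treated with DMSO and 3 treated with GSK2837808A. Values deposited as signal are read counts that the authors normalised with 1 factor per library. The submitters' processing notes name STAR and DESeq, with the builds GRCm38 and mm10, without role or version. No source used here gives the counter, annotation release or strand setting, and Smart-seq2 does not mark strand. The table's 118098 transcript rows repeat each gene's value, and 1 row was kept for each of 32285 genes. All nonzero values (100%) were, within 0.01, whole multiples of the smallest value of their library, so whole reads were recovered (7187089 to 10224348).

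Genes with a mean of at least 10 (15073) were tested with limma 3.58.1 in R 4.3.3 on log2(value + 1), with trended, robust variance priors, group as only term and Benjamini-Hochberg adjustment at 0.05 over all of them. Fold changes on this scale understate low genes. The test was checked on simulated counts. Ratios and marker sums were compared with exact permutation tests (two-sided). Positions and exon lengths are from GENCODE vM21 (GRCm38), promoter sequences from RefSeq (GRCm38.p6). All members are described, with library values for those that passed and for 6 central genes that did not. From each related list up to 3 genes per direction by smallest p were named, with Slc7a11, Nqo1, Hmox1, Txnip and Fth1 always. Hagh, Bach1, Ccs, Gstm2, Gstp2 and the marker genes Prom1, Pax6 and Sox2 were named after their values were seen. Alternatives were a pseudocount of 10, no filter, a mean of at least 100, 2 other scalings, a prior without the robust option, a replicate block, each library left out, and edgeR 4.0.16 and DESeq2 1.42.0 on recovered reads. The members and lists were chosen with earlier results of these data known. Replicates differed by more than sampling noise (chi-square per degree of freedom 4.45 to 14.2), so none was merged.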

Additional observations from a re-analysis of the deposited data

How the results depend on the processing

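Of the 18 members that passed, 13 (9 higher, 4 lower) kept the call in every alternative run on them (15, or 14 for Srxn1, whose mean is under 100) and none changed sign, while Gss, Gstt2, Prdx2, Sod1 and Sod2 lost it in at least 1. Of the 20 that did not pass, 7 did in at least 1 alternative; Hmox2, Gstm5 and Mgst1 did so without GSK replicate 1. With single libraries left out, members called higher ranged from 9 to 18 and members called lower from 4 to 7; with equal library totals 11 members were higher and 7 lower. Over all tested genes the omissions gave 1734 to 3062 higher and 2238 to 3236 lower. Some members that did not pass changed sign. With equal library totals the log2 fold changes were -0.0312 for Gpx8, -0.0654 for Txnrd2, -0.0665 for Prdx1, -0.0145 for Gstp1, -0.0629 for Gsto1. With totals leaving out globin, mitochondrial and ribosomal-RNA-overlapping genes they were -0.0226 for Txnrd2, -0.0235 for Prdx1, -0.0199 for Gsto1. With edgeR they were -0.0188 for Txnrd2, -0.00841 for Gsto1, and with DESeq2 Txnrd2 had -0.00098. In the omissions the ranges were -0.0123 to 0.13 for Keap1, -0.0882 to 0.29 for Gpx7, -0.0887 to 0.18 for Gpx8, -0.17 to 0.11 for Txn2, -0.12 to 0.15 for Txnrd2, -0.13 to 0.18 for Prdx1, -0.34 to 0.0683 for Prdx5, -0.12 to 0.24 for Gstp1, -0.12 to 0.19 for Gsto1. The log2 difference of the Sod1 to Sod2 ratio ran from -0.0251 to 0.15, negative without GSK replicate 2. Other scalings moved the median log2 fold change of all tested genes by at most 0.07. Deviations from the group means were hardly correlated between same-numbered libraries (0.01, -0.02 and 0.05). With 3 libraries per group this cannot show whether the samples were paired, and the labels do not say. A fit with the replicate block gave 14 members higher and 5 lower, the fifth being Txn1 (limma adjusted p = 0.0482). Over all genes that fit gave 2662 higher and 2980 lower. Depth limits Gstt1 most, with 13 reads in its lowest library.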
